A study of Mus musculus with 10 samples.

Results

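The cyclins, cyclin-dependent kinases (CDKs), CDK inhibitors, E2F transcription factors, pocket proteins and E2F partners of the cell cycle engine were examined in mouse liver and in liver tumors driven by c-MYC, with or without active FOXO1. The members were picked out by gene symbol, with no value of theirs used in the rule, and 46 of the 16697 gene entries in the expression table matched. Of these, 44 reached an FPKM of 1 in 3 or more libraries and were tested, and Cdk14 and Cdkn2b did not. FPKM are fragments scaled to transcript length and to a library size adjusted by a factor for each library. Levels can thus be compared between genes as far as the transcript lengths used are right. FPKM include the 2 reads that the authors added to each count, so a gene without reads is not at 0. Ccna1, Ccnb3, Cdk3 and Cdk15 were not analysed here.

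RNA was sequenced from wild-type normal liver (NL, n = 4), tumors induced by c-MYC with the empty pT3 vector (c-MYC, n = 3) and tumors induced by c-MYC plus FOXO1AAA (c-MYC/FOXO1AAA, n = 3). The study compared them to ask whether active FOXO1 alters gene expression in c-MYC tumors. Tumors were made by hydrodynamic tail vein injection of plasmids carrying the genes behind the EF1α promoter, together with Sleeping Beauty transposase, which inserts them into the genome of hepatocytes, so both tumor groups carry c-MYC and the host genome is otherwise wild type. FOXO1AAA is a MYC-tagged FOXO1 that AKT cannot inactivate. The labels give C57BL/6 for all 10 libraries whereas the methods name FVB/N, neither gives ages for these samples, and strain was used in no test. The methods describe RNA from mice given each plasmid mix (n = 3 for both) and from normal livers (n = 4). Neither they nor the labels state outright that libraries of a group came from separate animals. The p-values thus measure only the spread between these samples.

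Cyclins are the regulatory partners that switch CDKs on. D-type cyclins with Cdk4 or Cdk6, followed by E-type cyclins with Cdk2, phosphorylate the pocket proteins Rb1, Rbl1 and Rbl2, which releases E2F factors to transcribe genes of DNA replication, and A- and B-type cyclins with Cdk1 then drive mitosis. CIP/KIP inhibitors (Cdkn1a, Cdkn1b, Cdkn1c) bind cyclin-CDK complexes, INK4 inhibitors (Cdkn2a to Cdkn2d) bind Cdk4 and Cdk6, and in adult liver most hepatocytes rest outside the cycle.

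Depth ranged from 13.12 M to 20.55 M reads per library (M, mega). The library size behind the FPKM was 0.6486 to 0.6838 times these reads in NL. It was 1.256 to 1.295 times in c-MYC and 1.454 to 1.502 times in c-MYC/FOXO1AAA. FPKM summed over all genes came to 1063600 to 1126400 in NL, 551200 to 588220 in c-MYC and 485910 to 528070 in c-MYC/FOXO1AAA. Foxo1, the gene supplied in the third group, stood at 6.69 to 7.87 FPKM in NL, 5.17 to 6.46 in c-MYC and 70.1 to 95.6 in c-MYC/FOXO1AAA. The library NL 1 was the highest NL library for 28 of the 46 members (60.9%), against 45.3% of all genes tested. The summed FPKM of 6 hepatocyte markers ranged from 81200 to 91100 in NL, 3780 to 5560 in c-MYC and 875 to 1550 in c-MYC/FOXO1AAA, whereas 6 stellate cell and fibroblast markers summed to 80.7 to 103, 9.13 to 31.2 and 344 to 440. Summed over 5 skeletal muscle markers, the ranges were 0.329 to 0.468, 0.927 to 5.19 and 114 to 172, with Myod1 and Myog at no more than 3 reads in every NL and c-MYC library. Endothelial markers (6) summed to 45.2 to 60.7, 9.81 to 17.3 and 26.3 to 41.0, where the last step was that of Cdh5 (a mean of 4.61 FPKM in c-MYC and 25.9 in c-MYC/FOXO1AAA), while Pecam1 had 5.70 and 3.59, Kdr 1.76 and 0.991 and Stab2 0.388 and 0.226. Summed in the same order, Kupffer cell markers (6) came to 187 to 327, 95.8 to 136 and 45.3 to 77.6, cholangiocyte markers (5) to 20.1 to 27.9, 17.6 to 32.4 and 30.2 to 38.1, and the 2 T and B cell markers present in the table to 1.32 to 2.13, 2.0 to 2.19 and 8.29 to 12.5. Of the latter pair, Cd79a had means of 0.217 FPKM in c-MYC and 9.52 in c-MYC/FOXO1AAA, and the general leukocyte marker Ptprc 1.86 and 1.04. Single markers within the other sums also differed in course. Means in NL, c-MYC and c-MYC/FOXO1AAA were 19.65, 1.55 and 25.5 FPKM for Spp1 and 1.24, 15.1 and 1.99 for Epcam among cholangiocyte markers. Among Kupffer cell markers they were 208, 4.66 and 18.1 for Clec4f and 33.0, 64.2 and 10.8 for Cd5l. Among stellate cell markers they were 69.8, 4.585 and 236 for Dcn and 3.85, 0.0967 and 0.278 for Lrat. The part of these cell types in the results below was not tested, and in whole tissue a change in the number of cells cannot be told apart from a change in RNA per cell. With all libraries rescaled to the same FPKM total, the all-gene median of the log2 fold change went from 0.08 to 1.01 in c-MYC versus NL. It went from 0.03 to 0.20 between the tumor groups and from 0.21 to 1.31 in c-MYC/FOXO1AAA versus NL, so changes are best read relative to that median.

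In c-MYC versus NL, 25 members rose and 6 fell of the 44 tested, that is 56.8% higher and 13.6% lower. Across all 14017 genes tested, 48.1% were called, 24.5% higher and 23.6% lower. A member was called when its change exceeded 1.5-fold in limma's treat test at an adjusted p under 0.05. The median log2 fold change was 1.23 over the members and 0.08 over all genes, and the groups did not overlap for 38 members, against 73.9% of all genes. The members that rose were Ccnd3 and the E-, A- and B-type cyclins, Cdk1, Cdk2, Cdk4, Cdk7, Cdk8, Cdk12 and Cdk16, the inhibitors Cdkn1a, Cdkn1c and Cdkn2d, Rbl1, Tfdp1 and all E2Fs except E2f6. Those that fell were Ccnd1, Ccnd2, Cdk17, Cdk18, Cdk19 and Rbl2. Of those that rose, Ccnb1, E2f2, E2f7 and Rbl1 reached an FPKM of 1 in fewer than 3 NL libraries. They were thus tested only because of the tumor libraries, where they were high. With the libraries at the same FPKM total, 34 members were called higher and 4 lower, the former then with Cdk6 (1.29, adjusted p = 0.0185), Cdkn2a (1.96, adjusted p = 0.0095) and Cdkn2c (1.17, adjusted p = 0.00311) among them. The median over all genes was then 1.01, so Cdk6 and Cdkn2c lay close to it. The share of all genes called at that scaling was not computed, so these counts cannot be read as a trait of the members.

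In c-MYC/FOXO1AAA versus c-MYC, 8 members rose (18.2%) and none fell, where 28.7% of all genes tested were called, 15.9% higher and 12.7% lower. Without regard to multiple testing, 11 members were higher and 0 lower at an unadjusted p under 0.05 in the same limma test. Quantile normalization gave 8 higher and 1 lower, and a limma test with no fold-change threshold gave 17 and 5. The shares of all genes under these other rules were not computed, so their balance of higher and lower cannot be read as a trait of the members. The 8 were Ccnd2, Cdk6, Cdk17, Cdk18, Cdk19, Cdkn2a, Rb1 and Rbl2. Without the c-MYC/FOXO1AAA libraries, neither Cdkn2a nor E2f7, which was not called here, would have passed the filter on low values. The median log2 fold change was 0.25 over the members and 0.03 over all genes, and the groups did not overlap for 32 members, against 63.4% of all genes. This comparison and c-MYC versus NL rest on the same c-MYC libraries, so their calls are not independent of each other. None of the E-, A- or B-type cyclins, Cdk1, Cdk2 or Cdk4 was called in this comparison. Each of them differed by less than 1.5-fold, which the test cannot call.

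Against NL, c-MYC/FOXO1AAA had 28 members higher and 2 lower of the 44 (68.2%), where 57.8% of all genes were called, 31.2% higher and 26.6% lower. The median was 1.27 over the members and 0.21 over all genes, and the groups did not overlap for 40 members, against 80.1% of all genes. Of the 44 members, 8 passed no test in any of the comparisons (Cdk5, Cdk10, Cdk11b, Cdk13, Cdk20, Cdkn1b, Cdkn2c and E2f6).

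**Figure D1:**
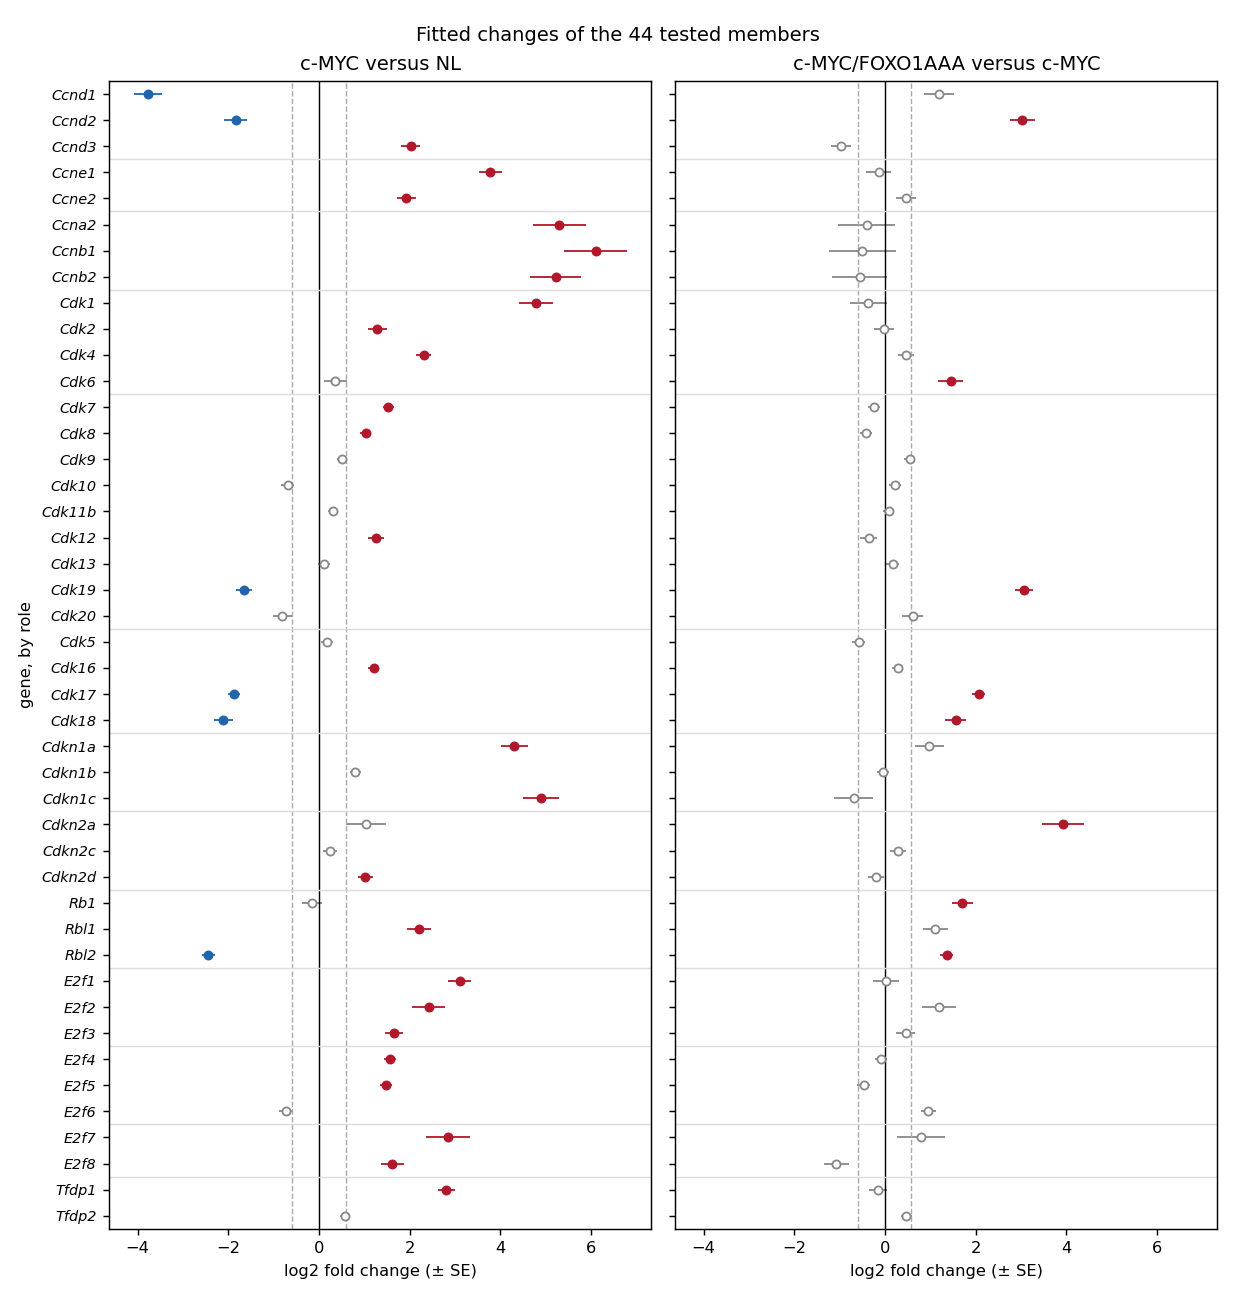
Log2 fold changes of the 44 members tested, with their standard errors, with c-MYC versus NL on the left and c-MYC/FOXO1AAA versus c-MYC on the right. Filled points passed the test (red higher, blue lower), open grey points did not, and the dashed lines mark a 1.5-fold change: 31 points are filled in the first panel and 8 in the second, all of the latter to the right.

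The D-type cyclins, which couple growth signals to Cdk4 and Cdk6, moved apart from each other. Ccnd1 (7:144929931-144939925, positions in GRCm38) had 16.5, 15.2, 7.15 and 13.4 FPKM in the NL libraries 1 to 4, 0.818, 0.869 and 1.06 in c-MYC 1 to 3, and 1.51, 3.01 and 2.01 in c-MYC/FOXO1AAA 1 to 3. The 3 groups did not overlap, with c-MYC lowest. Ccnd1 fell from NL to c-MYC (log2 fold change −3.77 ± 0.31 SE, adjusted p = 4.36e-06) and remained lower in c-MYC/FOXO1AAA than in NL (−2.58 ± 0.31, adjusted p = 9.99e-05). Between the tumor groups the value was 1.20 ± 0.33 (adjusted p = 0.143), which did not pass.

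Ccnd2 (6:127125162-127152193) had 15.1, 11.0, 8.19 and 11.7 FPKM in NL, 2.36, 2.81 and 4.70 in c-MYC, and 30.4, 20.6 and 27.4 in c-MYC/FOXO1AAA, with no overlap between any of the groups. It fell in c-MYC relative to NL (−1.84 ± 0.26, adjusted p = 0.00105) and rose with FOXO1AAA (3.03 ± 0.28, adjusted p = 2.8e-05). The fall from NL was no longer called with the libraries at the same FPKM total (−0.91, adjusted p = 0.172). Against NL, the c-MYC/FOXO1AAA libraries were higher by 1.20 ± 0.26 (adjusted p = 0.0353, with 4.98e-05 to 0.444 over the alternatives). Its length in the table, 627 bases, is 9.91% of that of its longest annotated transcript, so its level relative to other genes depends on that choice, whereas its fold changes do not.

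Ccnd3 (17:47505051-47599691) went the other way. It had 27.8, 22.9, 26.2 and 21.4 FPKM in NL, 108, 99.2 and 90.4 in c-MYC, and 53.6, 70.7 and 34.2 in c-MYC/FOXO1AAA, the last group lying between the others. Ccnd3 rose from NL to c-MYC (2.02 ± 0.21, adjusted p = 7.87e-05). The tumor groups differed by −0.97 ± 0.22 (adjusted p = 0.168), and without c-MYC/FOXO1AAA 2 by −1.21 (adjusted p = 0.0211), so with that library in the fit the difference is not called. The excess of c-MYC/FOXO1AAA over NL, 1.05 ± 0.21, passed narrowly (adjusted p = 0.0413) and kept its side of the threshold in 11 of 22 alternatives.

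As a share of the summed FPKM of the D-type cyclins, Ccnd3 made up 50.6% ± 8.33 (SD, n = 4) in NL, 95.9% ± 1.64 (n = 3) in c-MYC and 63.8% ± 10.6 (n = 3) in c-MYC/FOXO1AAA. Ccnd2 made up 23.2% ± 2.68, 3.25% ± 1.45 and 33.5% ± 10.7, and Ccnd1 26.2% ± 6.16, 0.897% ± 0.19 and 2.70% ± 0.815. The c-MYC tumors therefore held nearly all of their D-type cyclin RNA as Ccnd3, and the FOXO1AAA tumors held Ccnd3 and Ccnd2. With the longest annotated transcripts as lengths, a choice made after seeing the data, the Ccnd2 shares were 4.07%, 0.582% and 8.50%, and those of Ccnd3 49.0%, 97.8% and 84.8%. The shares were compared by two-sided exact permutation tests, which cannot go below p = 0.0571 with 3 against 4 libraries or 0.1 with 3 against 3. Over the 33 share comparisons made, the lowest adjusted p was 0.0942. For the D-type cyclins the smallest possible p was reached in every comparison except c-MYC/FOXO1AAA versus NL, with p = 0.229 for Ccnd2 and p = 0.171 for Ccnd3 in the exact test.

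**Figure D2:**
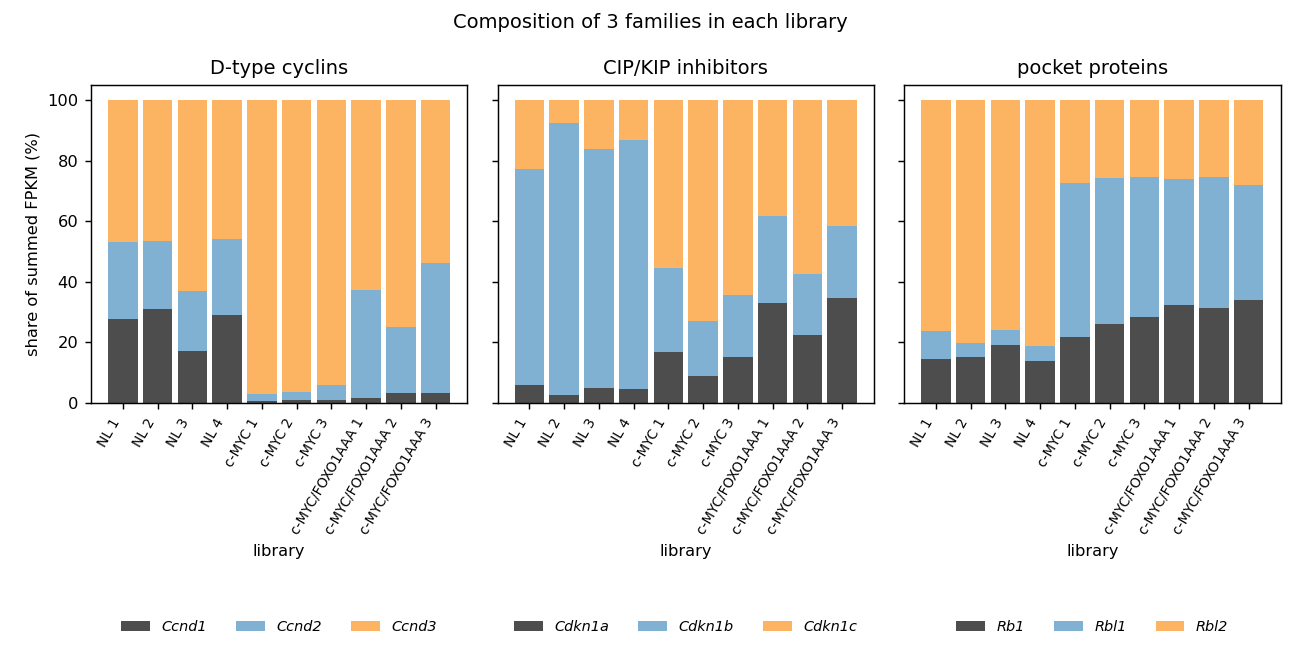
Share (percent of summed FPKM) of each member within the D-type cyclins, the CIP/KIP inhibitors and the pocket proteins, stacked for each of the 10 libraries. In the c-MYC libraries Ccnd3 fills 94.0% to 97.1% of the D-type cyclin bar, and Rbl2 falls from a mean of 78.4% of the pocket protein bar in NL to 26.2% in c-MYC and 26.5% in c-MYC/FOXO1AAA.

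The E-type cyclins, the partners of Cdk2 at entry into S phase, rose in c-MYC and were not called between the tumor groups. Ccne1 (7:38097984-38107534) had 3.73, 1.92, 1.85 and 1.62 FPKM in NL, 24.2, 36.1 and 29.5 in c-MYC, and 24.2, 31.8 and 25.2 in c-MYC/FOXO1AAA. The tumor groups overlapped and both lay above NL. Ccne1 rose by 3.78 ± 0.26 from NL to c-MYC (adjusted p = 1.38e-06). Between the tumor groups it differed by −0.14 ± 0.28 (adjusted p = 1), with a sign that changed with the scaling. Ccne2 had 1.13, 0.880, 1.17 and 1.65 FPKM in NL, 4.35, 4.44 and 4.59 in c-MYC, and 6.50, 6.43 and 5.58 in c-MYC/FOXO1AAA. No groups overlapped for Ccne2, which rose by 1.92 ± 0.21 in c-MYC versus NL (adjusted p = 0.000119) and differed by 0.47 ± 0.22 between the tumor groups (adjusted p = 1).

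**Figure D3:**
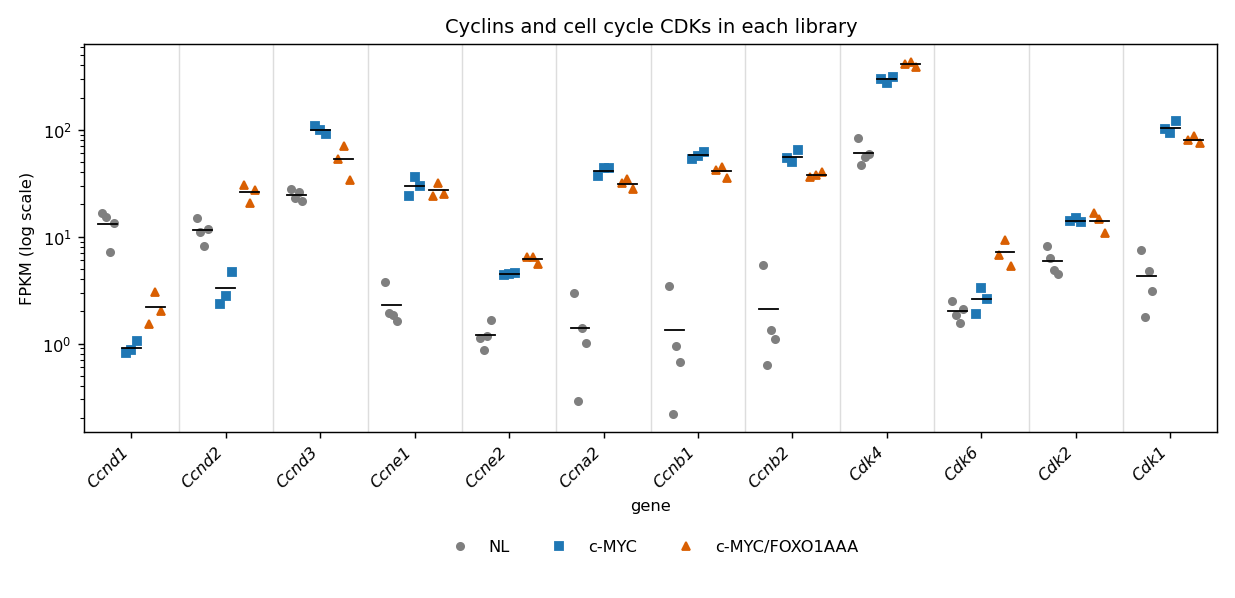
FPKM (log axis) of the cyclins and of the cell cycle CDKs in each library, grouped as NL, c-MYC and c-MYC/FOXO1AAA, with points for libraries and short lines for group means. Ccna2, Ccnb1, Ccnb2 and Cdk1 lie far above NL in all 6 tumor libraries, while Ccnd1 and Ccnd2 lie below NL in the 3 c-MYC libraries.

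The mitotic members Ccna2, Ccnb1, Ccnb2 and Cdk1 rose in c-MYC versus NL. Their promoters, from RefSeq (GRCm38.p6), run from 250 bases before to 50 after the annotated start and are shown for Ccnb1, Ccnb2 and their kinase Cdk1, 3 of the 5 members with the largest rise from NL to c-MYC. Capitals mark CCAAT boxes (CCAAT, read as ATTGG on the other strand) and cell cycle homology regions (TTTGAA or TTCGAA, either strand), elements known from promoters of mitotic genes. The promoters are those at chr13:100786437-100786736 for Ccnb1, chr9:70421505-70421804 for Ccnb2 and chr10:69352863-69353162 for Cdk1, all of the minus strand and printed 5′ to 3′ along the gene.
Ccnb1: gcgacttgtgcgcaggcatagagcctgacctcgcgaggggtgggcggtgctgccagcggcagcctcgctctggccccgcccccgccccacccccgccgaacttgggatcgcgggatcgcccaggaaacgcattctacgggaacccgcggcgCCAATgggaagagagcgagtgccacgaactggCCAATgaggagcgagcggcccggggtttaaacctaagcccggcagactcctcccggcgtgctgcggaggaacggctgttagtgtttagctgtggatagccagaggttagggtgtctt
Ccnb2: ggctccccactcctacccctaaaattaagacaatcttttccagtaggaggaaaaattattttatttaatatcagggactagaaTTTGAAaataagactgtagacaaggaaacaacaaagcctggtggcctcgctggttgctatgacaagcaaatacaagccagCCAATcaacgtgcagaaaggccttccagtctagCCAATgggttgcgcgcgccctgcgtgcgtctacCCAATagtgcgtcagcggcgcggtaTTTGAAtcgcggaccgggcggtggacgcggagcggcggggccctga
Cdk1: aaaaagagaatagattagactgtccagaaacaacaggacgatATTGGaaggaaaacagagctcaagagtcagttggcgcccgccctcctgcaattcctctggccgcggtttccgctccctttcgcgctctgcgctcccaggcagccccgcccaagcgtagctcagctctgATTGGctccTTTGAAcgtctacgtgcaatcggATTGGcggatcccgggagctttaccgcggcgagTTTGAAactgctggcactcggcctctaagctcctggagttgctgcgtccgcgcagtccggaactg
CCAAT boxes began at −99 and −67 from the start in Ccnb1, at −87, −54 and −21 in Ccnb2 and at −208, −80 and −48 in Cdk1. The homology region letters were found at −167 and 5 in Ccnb2 and at −71 and −15 in Cdk1, and not in this window of Ccnb1.

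Cdk1 (10:69335146-69352938), the kinase of mitotic entry, had 7.54, 1.79, 4.75 and 3.12 FPKM in NL, 100.9, 93.5 and 119.5 in c-MYC, and 80.3, 87.6 and 74.8 in c-MYC/FOXO1AAA. Every tumor library lay above every NL library, and the c-MYC libraries lay above those with FOXO1AAA. Cdk1 rose by 4.79 ± 0.38 in c-MYC versus NL (adjusted p = 3.52e-06) and by 4.42 in c-MYC/FOXO1AAA versus NL (adjusted p = 4.24e-06). The tumor groups differed by −0.37 ± 0.41 (adjusted p = 1).

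Ccnb1 (13:100778650-100786570), a B-type cyclin that binds Cdk1, had 3.47, 0.218, 0.953 and 0.674 FPKM in NL, 53.7, 56.4 and 62.4 in c-MYC, and 42.3, 44.5 and 35.3 in c-MYC/FOXO1AAA. NL 1 was the highest of the NL libraries and NL 2 the lowest. Only NL 1 of them reached an FPKM of 1, so Ccnb1 was tested because of the tumor libraries, where it was high. The rise from NL to c-MYC was 6.10 ± 0.69 (adjusted p = 3.8e-05), the largest among the members. It came to 6.79 without NL 1 and to 5.46 without NL 2. Against NL, c-MYC/FOXO1AAA was higher by 5.60 (adjusted p = 5.38e-05), or by 6.29 and 4.96 without those libraries.

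Ccnb2 (9:70407692-70421547) had 5.40, 0.632, 1.35 and 1.10 FPKM in NL, 54.4, 49.9 and 64.2 in c-MYC, and 35.9, 37.8 and 39.8 in c-MYC/FOXO1AAA, again with NL 1 apart from the other NL libraries. It rose by 5.22 ± 0.56 in c-MYC versus NL (adjusted p = 2.68e-05), or by 5.84 without NL 1. Ccna2 (3:36564865-36572150), which serves both S phase and mitosis, had 2.94, 0.290, 1.39 and 1.02 FPKM in NL, 37.1, 43.7 and 43.7 in c-MYC, and 31.7, 34.3 and 28.1 in c-MYC/FOXO1AAA. NL 1 was again the highest NL library and NL 2 the lowest. Its rise from NL to c-MYC was 5.30 ± 0.59 (adjusted p = 3.55e-05), or 4.69 without NL 2. For Ccna2, Ccnb1, Ccnb2 and Cdk1 alike, each c-MYC/FOXO1AAA library lay below each c-MYC library, with differences of −0.40, −0.50, −0.56 and −0.37, none of which was called (adjusted p = 1 for each). Changes under 1.5-fold, as these are, cannot be called by this test. Their standard errors also draw on the spread of the NL libraries, so the lack of a call does not show the tumor groups to be equal.

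Among the CDKs of G1 and S phase, Cdk4 was the most abundant. Its promoter (chr10:127063285-127063584, plus strand) is shown because it held 4 copies of CACGTG, the E-box letters that c-MYC with its partner MAX is known to bind, here in capitals.
Cdk4: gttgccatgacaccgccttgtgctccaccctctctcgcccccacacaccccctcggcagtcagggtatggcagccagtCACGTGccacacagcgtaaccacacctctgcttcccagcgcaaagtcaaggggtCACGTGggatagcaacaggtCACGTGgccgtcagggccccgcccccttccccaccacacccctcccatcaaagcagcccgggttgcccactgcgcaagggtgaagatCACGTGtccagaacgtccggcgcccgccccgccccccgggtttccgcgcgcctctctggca
The copies began at −172, −118, −98 and −11 from the annotated start. Cdk4 (10:127063534-127067920) had 83.0, 46.6, 55.2 and 59.2 FPKM in NL, 302, 276 and 309.6 in c-MYC, and 413, 434 and 385 in c-MYC/FOXO1AAA. The groups were fully ordered, with c-MYC/FOXO1AAA highest. Cdk4 rose by 2.31 ± 0.16 in c-MYC versus NL (adjusted p = 3.48e-06) and by 2.78 in c-MYC/FOXO1AAA versus NL (adjusted p = 3.3e-07), and the tumor groups differed by 0.47 ± 0.18 (adjusted p = 1). It overlaps Tspan31 of the other strand in the annotation, and whether the counting used strand is not stated.

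Cdk6, the close relative of Cdk4, had 2.48, 1.84, 1.57 and 2.11 FPKM in NL, 1.89, 3.30 and 2.62 in c-MYC, and 6.75, 9.24 and 5.37 in c-MYC/FOXO1AAA. NL and c-MYC overlapped, and the FOXO1AAA libraries lay above both. The fitted difference was 0.36 ± 0.25 in c-MYC versus NL (adjusted p = 1), 1.45 ± 0.27 in c-MYC/FOXO1AAA versus c-MYC (adjusted p = 0.018) and 1.82 in c-MYC/FOXO1AAA versus NL (adjusted p = 0.000713). The call between the tumor groups was lost without c-MYC 1 (1.24, adjusted p = 0.0717) or without c-MYC/FOXO1AAA 2 (1.25, adjusted p = 0.081). Cdk6 remained the minor kinase of the pair, since Cdk4 made up 96.8% ± 0.481 (SD, n = 4), 99.1% ± 0.281 (n = 3) and 98.3% ± 0.362 (n = 3) of their summed FPKM.

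Cdk2 (10:128697939-128705031), the partner of cyclins E and A, changed less than Cdk1 or Cdk4. It had 8.14, 6.27, 4.90 and 4.45 FPKM in NL, 13.9, 14.8 and 13.6 in c-MYC, and 16.7, 14.8 and 10.9 in c-MYC/FOXO1AAA. Both tumor groups lay above NL and overlapped each other. Cdk2 rose by 1.29 ± 0.21 in c-MYC versus NL (adjusted p = 0.0085), and the tumor groups differed by −0.02 ± 0.22 (adjusted p = 1).

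The CIP/KIP inhibitors, which block cyclin-CDK complexes, were higher in tumors for 2 of the 3 members. Cdkn1a (17:29090976-29100727), encoding p21, had 2.10, 0.727, 1.29 and 1.11 FPKM in NL, 26.6, 18.4 and 28.4 in c-MYC, and 49.3, 42.7 and 50.4 in c-MYC/FOXO1AAA. All groups were separate, in that order. Cdkn1a rose by 4.31 ± 0.30 in c-MYC versus NL (adjusted p = 1.23e-06) and by 5.28 in c-MYC/FOXO1AAA versus NL (adjusted p = 1.37e-07). Between the tumor groups the value was 0.98 ± 0.32 (adjusted p = 0.328), and it passed the limma test without a fold-change threshold (adjusted p = 0.0241).

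Cdkn1c (7:143458339-143461050), encoding p57 and known as an imprinted gene, had 8.02, 2.20, 4.29 and 3.19 FPKM in NL, 88.2, 152 and 120.2 in c-MYC, and 57.05, 109 and 61.1 in c-MYC/FOXO1AAA. The tumor groups overlapped and both lay above NL. It rose by 4.89 ± 0.40 in c-MYC versus NL (adjusted p = 4.29e-06) and by 4.20 in c-MYC/FOXO1AAA versus NL (adjusted p = 9.8e-06), with −0.69 ± 0.43 between the tumors (adjusted p = 0.86).

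Cdkn1b (6:134920401-134925513), encoding p27, had 24.9, 26.2, 21.0 and 20.2 FPKM in NL, 44.0, 38.0 and 38.0 in c-MYC, and 43.0, 38.3 and 34.9 in c-MYC/FOXO1AAA. NL lay below both tumor groups, which overlapped. The difference of 0.80 ± 0.12 in c-MYC versus NL did not pass the 1.5-fold test (adjusted p = 0.104), but did with quantile normalization (0.90, adjusted p = 0.0319) or the same FPKM total (1.73, adjusted p = 4.64e-06). The make-up of the family thus shifted. Cdkn1b fell from 80.6% ± 7.84 (SD, n = 4) of the summed CIP/KIP FPKM in NL to 22.1% ± 4.97 (n = 3) in c-MYC and 24.3% ± 4.32 (n = 3) in c-MYC/FOXO1AAA, with the smallest p that the exact permutation test allows (p = 0.0571) for either tumor group. Cdkn1c made up 14.9%, 64.3% and 45.8%, and Cdkn1a 4.47%, 13.6% and 30.0%. The Cdkn1b shares of the tumor groups overlapped (p = 0.6, exact permutation test).

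Of the INK4 inhibitors, which bind Cdk4 and Cdk6, Cdkn2a stood out with FOXO1AAA. The locus (4:89274471-89294653) has separate starts for the INK4 protein p16 and, upstream, for p19 ARF, an activator of p53, and the gene table does not separate them. Their RefSeq promoters, chr4:89282143-89282442 for the downstream start and chr4:89294570-89294869 for the upstream start, both of the minus strand, are shown with E2F motif letters in capitals.
Cdkn2a, downstream start: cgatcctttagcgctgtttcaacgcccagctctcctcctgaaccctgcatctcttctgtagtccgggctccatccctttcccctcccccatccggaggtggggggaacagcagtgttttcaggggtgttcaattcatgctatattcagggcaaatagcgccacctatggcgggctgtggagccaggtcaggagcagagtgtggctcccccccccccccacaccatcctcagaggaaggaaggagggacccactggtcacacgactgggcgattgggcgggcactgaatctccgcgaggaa
Cdkn2a, upstream start: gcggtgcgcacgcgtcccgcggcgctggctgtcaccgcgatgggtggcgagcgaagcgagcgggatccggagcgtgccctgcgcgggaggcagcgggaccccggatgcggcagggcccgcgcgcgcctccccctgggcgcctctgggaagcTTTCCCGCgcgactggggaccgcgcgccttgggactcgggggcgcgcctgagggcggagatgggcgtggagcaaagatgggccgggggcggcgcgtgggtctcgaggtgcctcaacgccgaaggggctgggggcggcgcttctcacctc
The E2F letters were found at −99 from the upstream start and not in the window of the downstream start. Cdkn2a had 0.245, 0.637, 0.379 and 0.401 FPKM in NL, 0.459, 0.700 and 1.61 in c-MYC, and 15.1, 9.61 and 12.7 in c-MYC/FOXO1AAA. These values rest on 1, 4, 2 and 2 reads in NL, 5, 9 and 23 in c-MYC and 314, 241 and 209 in c-MYC/FOXO1AAA. NL and c-MYC overlapped at a level of few reads, and the FOXO1AAA libraries lay far above both. Cdkn2a rose by 3.93 ± 0.47 in c-MYC/FOXO1AAA versus c-MYC (adjusted p = 0.000113), the largest change of any member in that comparison. Outside c-MYC/FOXO1AAA only c-MYC 3 reached an FPKM of 1, so Cdkn2a was tested only because of the group where it was high. The difference between c-MYC and NL was 1.03 ± 0.44 (adjusted p = 0.287).

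Cdkn2b (4:89306299-89311039), the neighbor of Cdkn2a encoding p15, did not pass the filter. It had 3, 3, 1 and 3 reads in NL, 3, 0 and 5 in c-MYC and 75, 31 and 47 in c-MYC/FOXO1AAA, that is 2.27, 0.832 and 1.81 FPKM in the last group and no more than 0.326 in the others. In the fit with no filter it was higher with FOXO1AAA than without (3.15 ± 0.53, adjusted p = 0.0015).

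The remaining INK4 members differed less. Cdkn2c, encoding p18, had 4.99, 4.38, 4.52 and 3.34 FPKM in NL, 5.71, 5.01 and 4.45 in c-MYC, and 5.76, 5.87 and 6.84 in c-MYC/FOXO1AAA. It was called in no comparison (0.24 ± 0.16 in c-MYC versus NL and 0.29 ± 0.17 between the tumor groups, adjusted p = 1 for both). Cdkn2d, encoding p19 INK4d, had 3.84, 4.03, 3.39 and 5.41 FPKM in NL, 8.09, 9.52 and 7.505 in c-MYC, and 7.38, 7.52 and 6.82 in c-MYC/FOXO1AAA. The tumor groups overlapped above NL and differed by −0.20 ± 0.18 (adjusted p = 1). Cdkn2d rose in c-MYC versus NL (1.02 ± 0.16, adjusted p = 0.0258), a call lost in 6 of 22 alternatives (adjusted p 1.94e-05 to 0.933), among them those without NL 1 (0.99, adjusted p = 0.053), NL 3 (0.93, adjusted p = 0.0661) or c-MYC 2 (0.92, adjusted p = 0.0945). Summed over the 4 INK4 members, the FPKM were 9.16 ± 0.475 (SD, n = 4) in NL, 14.5 ± 0.737 (n = 3) in c-MYC and 27.5 ± 3.39 (n = 3) in c-MYC/FOXO1AAA.

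**Figure D4:**
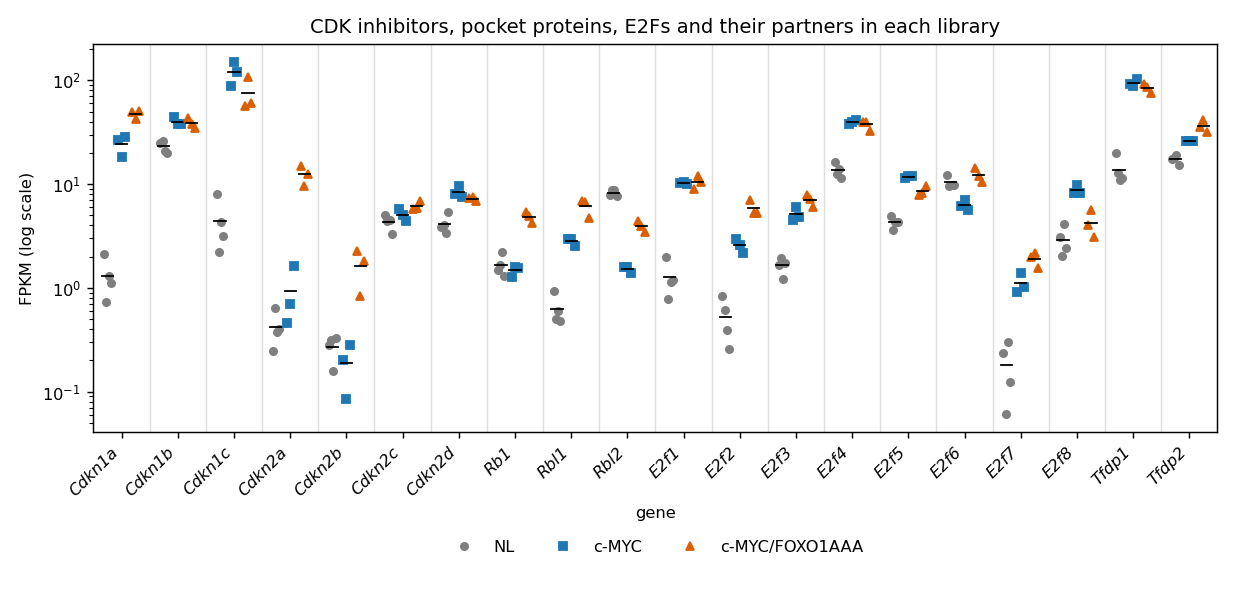
FPKM (log axis) of the CDK inhibitors, pocket proteins, E2Fs and E2F partners in each library, grouped as NL, c-MYC and c-MYC/FOXO1AAA, with points for libraries and short lines for group means. Cdkn1a and Cdkn1c lie above NL in all 6 tumor libraries, and Cdkn2a, Rb1 and Rbl1 are highest in the 3 c-MYC/FOXO1AAA libraries, while the lowest Cdkn2b point, with 0 reads, is the added count alone.

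The pocket proteins, which hold E2Fs in check, moved in different directions. Rbl2 (8:91070057-91123844), encoding p130, the pocket protein of resting cells, had 7.82, 8.77, 8.78 and 7.69 FPKM in NL, 1.61, 1.58 and 1.38 in c-MYC, and 4.37, 3.95 and 3.44 in c-MYC/FOXO1AAA. The groups did not overlap, and the FOXO1AAA tumors lay between the others. Rbl2 fell in c-MYC versus NL (−2.44 ± 0.14, adjusted p = 5.94e-07) and was higher with FOXO1AAA than without (1.36 ± 0.15, adjusted p = 0.00106), a call lost with quantile normalization (0.96, adjusted p = 0.0712). It was lower in c-MYC/FOXO1AAA than in NL (−1.08, adjusted p = 0.00525), a difference of 0.02 with the libraries at the same FPKM total.

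Rbl1, encoding p107, went up, and its promoter (chr2:157204485-157204784, minus strand) is shown with its E2F motif letters, which began at −18, in capitals.
Rbl1: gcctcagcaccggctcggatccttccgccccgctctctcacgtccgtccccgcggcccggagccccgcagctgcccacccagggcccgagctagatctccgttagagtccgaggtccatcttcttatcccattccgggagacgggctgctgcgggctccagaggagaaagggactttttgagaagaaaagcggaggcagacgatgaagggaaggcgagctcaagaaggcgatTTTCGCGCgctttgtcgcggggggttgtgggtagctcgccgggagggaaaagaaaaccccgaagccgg
Rbl1 (2:157145893-157204534) had 0.937, 0.504, 0.593 and 0.483 FPKM in NL, 2.95, 2.94 and 2.52 in c-MYC, and 6.89, 6.69 and 4.72 in c-MYC/FOXO1AAA. The groups did not overlap. Rbl1 rose by 2.20 ± 0.26 in c-MYC versus NL (adjusted p = 0.000169) and by 3.31 in c-MYC/FOXO1AAA versus NL (adjusted p = 2.26e-06), while the tumor groups differed by 1.11 ± 0.28 (adjusted p = 0.136).

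Rb1 (14:73183673-73325822) had 1.48, 1.64, 2.20 and 1.29 FPKM in NL, 1.28, 1.60 and 1.54 in c-MYC, and 5.39, 4.88 and 4.19 in c-MYC/FOXO1AAA. NL and c-MYC overlapped, and every FOXO1AAA library lay above them. Rb1 rose by 1.71 ± 0.23 in c-MYC/FOXO1AAA versus c-MYC (adjusted p = 0.00161) and by 1.56 in the same tumors versus NL (adjusted p = 0.00115). Its value in c-MYC versus NL, −0.15 ± 0.22 (adjusted p = 1), became 0.78 at the same FPKM total. The summed pocket protein FPKM were 10.5 ± 0.903 (SD, n = 4) in NL, 5.80 ± 0.333 (n = 3) in c-MYC and 14.8 ± 2.23 (n = 3) in c-MYC/FOXO1AAA. Of this sum Rbl1 made up 6.00% ± 2.11, 48.3% ± 2.16 and 40.9% ± 2.47 in the same order, and Rbl2 78.4% ± 2.74, 26.2% ± 1.14 and 26.5% ± 1.22, the tumor groups overlapping for Rbl2 (p = 0.6, exact permutation test).

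All 3 activator E2Fs, which turn on S-phase genes, rose from NL to c-MYC and none was called between the tumors. E2f1 (2:154559407-154569892) had 1.97, 0.781, 1.13 and 1.19 FPKM in NL, 10.2, 10.5 and 10.1 in c-MYC, and 9.05, 12.0 and 10.4 in c-MYC/FOXO1AAA. The tumor libraries overlapped and all exceeded NL (3.10 ± 0.26 for c-MYC versus NL, adjusted p = 5.94e-06). Between the tumor groups E2f1 differed by 0.02 ± 0.28 (adjusted p = 1). E2f2 had 0.827, 0.607, 0.392 and 0.260 FPKM in NL, 2.94, 2.61 and 2.15 in c-MYC, and 7.10, 5.25 and 5.23 in c-MYC/FOXO1AAA, and it rose by 2.42 ± 0.36 in c-MYC versus NL (adjusted p = 0.000655). The tumor groups did not overlap for E2f2, and their difference of 1.19 ± 0.38 was not called (adjusted p = 0.208), but was when only these groups were fitted (adjusted p = 0.0363). E2f3 had 1.68, 1.94, 1.21 and 1.75 FPKM in NL, 4.56, 5.99 and 4.82 in c-MYC, and 7.92, 7.14 and 6.01 in c-MYC/FOXO1AAA. Its groups were separate in that order, with a rise of 1.65 ± 0.20 in c-MYC versus NL (adjusted p = 0.000416) and a difference of 0.46 ± 0.21 between the tumor groups (adjusted p = 1).

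The repressor E2Fs, which act with pocket proteins or alone, were less uniform. E2f4, the most abundant E2F, had 16.3, 12.5, 13.9 and 11.5 FPKM in NL, 38.0, 39.7 and 41.6 in c-MYC, and 39.9, 40.1 and 32.8 in c-MYC/FOXO1AAA. The tumor groups overlapped above NL. It rose by 1.57 ± 0.13 in c-MYC versus NL (adjusted p = 3.7e-05) and differed by −0.09 ± 0.14 between the tumor groups (adjusted p = 1). E2f5 had 4.95, 3.64, 4.27 and 4.33 FPKM in NL, 11.4, 12.0 and 12.1 in c-MYC, and 7.85, 8.16 and 9.61 in c-MYC/FOXO1AAA, which lay between the other groups. It rose by 1.47 ± 0.13 in c-MYC versus NL (adjusted p = 8.56e-05), with −0.47 ± 0.14 between the tumor groups (adjusted p = 1).

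E2f6, which represses without pocket proteins, ran against this pattern. It had 12.3, 9.61, 9.79 and 9.82 FPKM in NL, 6.11, 7.03 and 5.61 in c-MYC, and 14.4, 11.9 and 10.4 in c-MYC/FOXO1AAA, so that c-MYC lay below the other groups, which overlapped. Its differences, −0.73 ± 0.15 in c-MYC versus NL (adjusted p = 0.29) and 0.96 ± 0.16 in c-MYC/FOXO1AAA versus c-MYC (adjusted p = 0.0612), did not pass, and the latter did in 6 of 22 alternatives (adjusted p 0.000346 to 1).

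The atypical E2Fs, known to counter the activators, rose in c-MYC versus NL. E2f7 had 0.237, 0.0604, 0.302 and 0.123 FPKM in NL, 0.918, 1.40 and 1.03 in c-MYC, and 1.98, 2.18 and 1.57 in c-MYC/FOXO1AAA, with only 2 to 15 reads in the NL libraries. Its groups were separate, with 2.85 ± 0.49 in c-MYC versus NL (adjusted p = 0.00139, or 0.0771 with a pseudocount of 1) and 0.79 ± 0.53 between the tumor groups (adjusted p = 0.795). E2f8 had 3.12, 2.04, 4.08 and 2.45 FPKM in NL, 8.17, 9.80 and 8.14 in c-MYC, and 4.07, 5.59 and 3.11 in c-MYC/FOXO1AAA. It rose by 1.62 ± 0.26 in c-MYC versus NL (adjusted p = 0.00302), and the FOXO1AAA libraries overlapped NL. The tumor groups, which did not overlap, differed by −1.07 ± 0.27 (adjusted p = 0.158, or 0.0437 with quantile normalization). Activators made up 9.86% ± 1.41 (SD, n = 4) of the summed FPKM of all E2Fs in NL, 21.0% ± 0.893 (n = 3) in c-MYC and 26.6% ± 0.675 (n = 3) in c-MYC/FOXO1AAA, with no overlap between groups.

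Tfdp1, the partner with which E2Fs bind DNA, had 19.8, 12.9, 11.0 and 11.4 FPKM in NL, 91.3, 87.8 and 104 in c-MYC, and 92.3, 86.2 and 75.7 in c-MYC/FOXO1AAA. The tumor groups overlapped far above NL. It rose by 2.81 ± 0.18 in c-MYC versus NL (adjusted p = 1.19e-06), and the tumor groups differed by −0.15 ± 0.20 (adjusted p = 1). Tfdp2 had 17.7, 17.8, 19.2 and 15.4 FPKM in NL, 25.9, 26.1 and 25.8 in c-MYC, and 35.2, 41.6 and 31.9 in c-MYC/FOXO1AAA. Its groups were separate, but the steps of 0.57 ± 0.11 in c-MYC versus NL (adjusted p = 0.808) and 0.47 ± 0.12 between the tumor groups (adjusted p = 1) did not pass. Only c-MYC/FOXO1AAA versus NL did, with 1.04 (adjusted p = 0.00211).

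Cdk17, Cdk18 and Cdk19, outside the core cycle, fell in c-MYC versus NL and were higher with FOXO1AAA, in comparisons that share the c-MYC libraries. Cdk19 (10:40339564-40483818), a kinase of the Mediator complex, had 3.12, 2.65, 2.77 and 2.89 FPKM in NL, 0.974, 0.783 and 0.959 in c-MYC, and 8.85, 8.02 and 5.97 in c-MYC/FOXO1AAA. The groups did not overlap. Cdk19 fell in c-MYC versus NL (−1.66 ± 0.18, adjusted p = 0.000238), which was lost at the same FPKM total (−0.74, adjusted p = 0.305). It rose with FOXO1AAA by 3.06 ± 0.20 (adjusted p = 1.89e-06), to a level above NL (1.40, adjusted p = 0.00126). It overlaps Cdk19os of the other strand. Its paralog in Mediator, Cdk8, had 34.1 ± 5.23 FPKM (SD, n = 4) in NL, 69.2 ± 5.83 (n = 3) in c-MYC and 51.7 ± 2.80 (n = 3) in c-MYC/FOXO1AAA and rose in c-MYC versus NL (1.03 ± 0.12, adjusted p = 0.00579).

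Cdk17 (10:93160875-93267071), a member of the PCTAIRE kinases, had 5.04, 5.05, 5.27 and 5.98 FPKM in NL, 1.51, 1.52 and 1.34 in c-MYC, and 6.18, 6.22 and 5.94 in c-MYC/FOXO1AAA. The FOXO1AAA libraries were near the top of the NL range and overlapped it, while c-MYC lay well below. It fell by 1.87 ± 0.13 in c-MYC versus NL (adjusted p = 5.63e-06) and rose by 2.07 ± 0.14 in c-MYC/FOXO1AAA versus c-MYC (adjusted p = 6.62e-06). Cdk18 (1:132112237-132139684), of the same subfamily, had 18.8, 20.6, 18.9 and 18.9 FPKM in NL, 5.22, 3.31 and 5.18 in c-MYC, and 15.6, 15.9 and 9.24 in c-MYC/FOXO1AAA, again with no overlap between c-MYC and the other groups. It fell by 2.11 ± 0.21 in c-MYC versus NL (adjusted p = 5.49e-05) and rose by 1.56 ± 0.23 with FOXO1AAA (adjusted p = 0.00346). The third PCTAIRE kinase, Cdk16, rose from 10.7 ± 1.03 (SD, n = 4) to 24.9 ± 3.54 (n = 3), with 29.9 ± 0.464 (n = 3) in c-MYC/FOXO1AAA. Cdk7, which activates other CDKs, also rose in c-MYC versus NL (1.53, adjusted p = 3.59e-05), and so did Cdk12, which acts on RNA polymerase II (1.26, adjusted p = 0.00341).

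Over the 9 CDKs of transcription and CDK activation, 3 rose and 1 fell in c-MYC versus NL, and 1 rose with FOXO1AAA. Over the 4 tested of the atypical CDKs, 1 rose and 2 fell in c-MYC versus NL, and 2 rose with FOXO1AAA. The shares over all genes were 24.5%, 23.6% and 15.9% for these directions, and the counts of these small groups were not tested against them. Cdk9, the kinase of transcription elongation, was called only in c-MYC/FOXO1AAA versus NL (1.06, adjusted p = 0.00172). Cdk14, below the filter, had no more than 1.27 FPKM in any library.

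The 8 members that rose with FOXO1AAA did so in tumors whose stellate cell and fibroblast markers (344 to 440 against 9.13 to 31.2 summed FPKM in c-MYC) and skeletal muscle markers (114 to 172 against 0.927 to 5.19) were higher as well, and the part of such cells in these 8 changes was not tested. From a list of genes known to be induced by FOXO factors, 5 are members (Cdkn1a, Cdkn1b, Cdkn2b, Cdkn2d and Rbl2). Of the 4 tested, 1 rose (Rbl2) and 0 fell in c-MYC/FOXO1AAA versus c-MYC, against 15.9% and 12.7% of all genes. Of the 2 D-type cyclins known to be repressed by FOXO factors, Ccnd2 rose and Ccnd1 was not called, with 1.20 as given above.

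Other genes of the pathway were taken from lists made by known role, and their counts are given against the shares of all genes called higher and lower. Of 20 S-phase genes known as E2F targets, 18 rose and 0 fell in c-MYC versus NL (against 24.5% and 23.6% of all genes), led by Cdc6 (5.22, adjusted p = 0.000296), with a median log2 fold change of 3.40. In c-MYC/FOXO1AAA versus c-MYC their median was −0.10 and 0 rose, against 15.9% of all genes. Pola1 had the largest value there (0.89, adjusted p = 0.192). Nearly all of these targets thus rose with c-MYC.

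Among 10 kinases, phosphatases and small subunits that set CDK activity, 8 rose and 1 fell in c-MYC versus NL (against 24.5% and 23.6% of all genes). The range ran from Cdk5rap3 (−0.91, adjusted p = 0.00972, but 0.01 at the same FPKM total) to the mitotic kinase Plk1 (5.27, adjusted p = 0.000103). With FOXO1AAA, 1 rose and 0 fell (against 15.9% and 12.7% of all genes). The gene that rose was the CDK-activating phosphatase Cdc25b (1.71, adjusted p = 0.0302), a call kept in 15 of 21 alternatives (adjusted p 0.000358 to 0.213). The call was lost without any single c-MYC library (adjusted p = 0.057, 0.0804 and 0.0643 without c-MYC 1, 2 and 3) or without c-MYC/FOXO1AAA 1 or 2 (adjusted p = 0.0758 and 0.0848). The lowest value was that of Wee1, which inhibits Cdk1 (−0.74, adjusted p = 0.562). Cdkn3, a phosphatase of CDKs whose name resembles those of the inhibitors, had 1.02, 0.130, 0.130 and 0.496 FPKM in NL, 7.60, 11.5 and 8.85 in c-MYC, and 2.89, 2.92 and 3.99 in c-MYC/FOXO1AAA. Its groups were separate, and it rose by 4.92 ± 0.65 in c-MYC versus NL (adjusted p = 0.000129) with −1.51 ± 0.69 between the tumor groups (adjusted p = 0.301, or 0.00632 when only these groups were fitted).

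Of 14 other cyclins, 2 rose and 2 fell in c-MYC versus NL, and 1 rose with FOXO1AAA, against 24.5%, 23.6% and 15.9% of all genes. Ccnf, a mitotic cyclin that is part of a ubiquitin ligase, had the largest value in c-MYC versus NL (3.31, adjusted p = 4.36e-06) and the lowest with FOXO1AAA (−1.03, adjusted p = 0.195). Ccng2, a cyclin of arrested cells, stood at the other end, falling in c-MYC versus NL (−1.73, adjusted p = 3.14e-05, or 0.137 at the same FPKM total) and rising with FOXO1AAA (2.42, adjusted p = 3.39e-06).

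The DREAM and MuvB list holds genes of complexes that form at promoters, and only some of their products join pocket proteins. Of its 7 genes tested, 4 rose and 0 fell in c-MYC versus NL (against 24.5% and 23.6% of all genes), from Lin52 (−0.83, adjusted p = 0.257) to Mybl2 (5.34, adjusted p = 0.000127). Between the tumor groups 0 were called (against 15.9% of all genes higher and 12.7% lower), from Mybl2 (−0.93, adjusted p = 0.795) to Mybl1 (1.48, adjusted p = 0.143). Of 15 genes listed for the ubiquitin ligases of cyclins and inhibitors, with regulators of these ligases such as Fbxo5 among them, 7 rose and 0 fell in c-MYC versus NL (against 24.5% and 23.6% of all genes). They ran from Fbxo31 (−0.78, adjusted p = 0.181) to Cdc20 (5.01, adjusted p = 6.16e-06). With FOXO1AAA, 0 of the 15 rose and 1 fell (against 15.9% and 12.7% of all genes), Btrc (−1.26, adjusted p = 0.00591), and the largest value was that of Anapc10 (1.0, adjusted p = 0.264).

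Of 13 known p53 targets other than Cdkn1a, 9 rose and 2 fell in c-MYC versus NL (against 24.5% and 23.6% of all genes), from Ei24 (−1.55, adjusted p = 1.5e-06, or 0.454 at the same FPKM total) to Gtse1 (4.56, adjusted p = 5.36e-06). With FOXO1AAA, 4 rose and 0 fell (against 15.9% and 12.7% of all genes), from Sesn2 (−0.31, adjusted p = 1) to Eda2r (3.53, adjusted p = 0.000424). The median between the tumor groups was 0.50 over these targets and 0.03 over all genes.

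RefSeq promoters of 300 bases were found for 35 of the 46 members, 44 promoters in all, and the letters were searched on both strands. No motif of one kind contains the letters of another. The E2F letters TTTCGCGC, TTTGGCGC, TTTCCCGC or TTTGGCGG stood in 9 member promoters (20.5%), against 2.37% of all 32851 promoters of that length, and the genes were Cdk1, Cdk2, Cdkn2a, E2f2, E2f3, E2f7, Rbl1 and Tfdp1. The Tfdp1 promoters overlap each other, and the same E2F site was counted in both. CACGTG also stood in 9 (20.5%, against 7.15%), among them Cdk4, Cdk6, Cdk7, Cdk8, Cdk18 and Tfdp1. CCAAT was found in 18 (40.9%, against 37.4%) and the cell cycle homology letters in 8 (18.2%, against 19.2%). The FOXO letters GTAAACA or ATAAACA stood in 1 member promoter, that of Ccnd3 at −243 (2.27%, against 7.97%). No promoter was found for Ccna2, Ccnd1, Ccnd2, Ccne2, Cdk5, Cdk17, Cdk19, Cdkn1c, E2f4, E2f5 and Rb1. Of the members that rose with FOXO1AAA, Ccnd2, Cdk17, Cdk19 and Rb1 were thus not searched. These counts describe the letters in the windows and were not tested.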

How the data were processed

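RNA-seq values for 10 libraries were used as deposited. Per the labels and methods, the authors counted reads by gene, converted identifiers to symbols and analysed counts in edgeR, and they deposited log2 FPKM. The values show that a prior count of 2 had been added, and whole reads could be recovered for all 16697 gene entries (tolerance 0.001 reads). The other 372 of 17069 entries carry no symbol and were left out. The processing notes name GRCm38 and FastQC 0.11.7. The aligner and counter are not given in the sources used here. Samples were grouped by title.

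A limma 3.58.1 model (R 4.3.3, statmod 1.5.0) was fitted to the 10 libraries, one mean per group, over the 14017 genes that reached an FPKM of 1 in 3 or more libraries. The deposited unit is not a count, so no count model was the main test. The treat function (trend, robust, two-sided, null of 1.5-fold) was used with Benjamini-Hochberg adjustment over all genes and a threshold of 0.05. Fold changes are on the log2 scale with the prior count, which understates changes of low genes. Tests were first tried on simulated data. Positions are those of GENCODE M21. Of the members, 29 overlap another annotated gene, 26 one of the other strand, and the strand setting of the counting is not stated.

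The naming rule gives values in every library for the members with a classical part in the cycle, the other CDKs by counts and by name where called with FOXO1AAA, and of each list of other genes the counts and the largest and smallest change in both tumor comparisons. Cdk7, Cdk8, Cdk9, Cdk12, Cdk14 and Cdk16 were named after their values were seen. A result of these lists is not reported here. The members and lists were chosen with earlier results of these data known. The alternatives were pseudocounts of 0.1 and 1, a minimum mean FPKM of 5 or no filter, rescaling to the same total or median, quantile normalization, no threshold or 2-fold, trend and robust estimation off, only the groups compared, the replicate block, and each library left out.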

Additional observations from a re-analysis of the deposited data

Results flagged for a closer look

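In NL, where 4 libraries allow a test for a value apart from the rest (Dixon's test at the 95% level), 5 of the 46 members had such a value, and chance gives about 1 in 20. The share of all genes with such a value was not computed, so the count cannot be read as a trait of the members. In 4 of the 5 the value apart was NL 1, which was the highest NL library for 45.3% of all genes tested. Ccnb2 was at 5.40 FPKM in NL 1 against 0.632 to 1.35 in the other NL libraries. Ccne1 was at 3.73 FPKM in NL 1 against 1.62 to 1.92. Cdk7 was at 8.48 FPKM in NL 1 against 6.04 to 6.34. E2f6 was at 12.3 FPKM in NL 1 against 9.61 to 9.82. Cdk18 was at 20.6 FPKM in NL 2 against 18.8 to 18.9.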

How the results depend on the processing

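The counts of members called kept to within 1.5 times under most alternatives. The shares of all genes called were computed for the main fit only, so the counts below have no such share beside them. In c-MYC versus NL, the minimum mean FPKM of 5 left 3 members lower. That minimum took members out of the test. All 96 results of the members still tested, over the 3 comparisons, kept their side of the threshold. In c-MYC/FOXO1AAA versus c-MYC, that minimum left 2 called, both higher, a 2-fold threshold 5, all higher, and no fold-change threshold 22, of which 17 were higher and 5 lower. Quantile normalization gave 1 lower, and leaving out single libraries gave 0 to 1 lower (Ccnd3, without c-MYC/FOXO1AAA 2). In c-MYC/FOXO1AAA versus NL, 1 member was lower with the minimum of 5, the same FPKM total or the 2-fold threshold, and 5 with no fold-change threshold. Leaving out single libraries gave totals of 30 to 31, 7 to 9 and 28 to 30 in the 3 comparisons.

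Members that were not called changed sign as follows. At the same FPKM total, c-MYC versus NL became 0.24 for Cdk10, 0.12 for Cdk20, 0.20 for E2f6 and 0.78 for Rb1, c-MYC/FOXO1AAA versus c-MYC became 0.03 for Ccne1, 0.15 for Cdk2, 0.12 for Cdkn1b, 0.08 for E2f4 and 0.02 for Tfdp1, and c-MYC/FOXO1AAA versus NL became 0.64 for Cdk10, 0.55 for Cdk18, 0.90 for Cdk20 and 0.69 for Cdk5. There the called member Rbl2 became 0.02. By construction this scaling moves all genes together. With quantile normalization, the tumor groups differed by 0.02 for Ccne1, 0.04 for Cdk2, −0.04 for Cdk20, 0.15 for Cdkn1b, 0.12 for E2f4 and 0.09 for Tfdp1, and at an equal median by −0.00 for Cdk11b and −0.06 for E2f1. Without single libraries, c-MYC versus NL ran from −0.02 to 0.19 for Cdk13 and −0.26 to 0.00 for Rb1, and the tumor groups differed by −0.28 to 0.01 for Ccne1, −0.15 to 0.16 for Cdk2, −0.13 to 0.03 for Cdkn1b, −0.08 to 0.12 for E2f1 and −0.14 to 0.01 for E2f4. The cause of the other sign changes was not tested.

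The replicate numbers did not pair the samples, since deviations of same-numbered libraries correlated at −0.0398 to 0.0272. With the replicate number as a block, 31, 8 and 29 members were called against 31, 8 and 30, with Ccnd2 and Ccnd3 lost (adjusted p = 0.0752 and 0.0872) and Cdkn2d gained (adjusted p = 0.0219) in c-MYC/FOXO1AAA versus NL by limma.

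With longest-transcript lengths, an alternative chosen after seeing the data, the share differences in points were −45.3 (c-MYC versus NL), 5.02 (c-MYC/FOXO1AAA versus c-MYC) and −40.3 (c-MYC/FOXO1AAA versus NL) for Ccnd1, −3.49 and 7.92 for Ccnd2 in the first pair of comparisons, −12.9 and 35.8 for Ccnd3 in the last pair, and 4.82, −1.70 and 3.13 for Cdk4. Members at a few reads, such as Cdkn2a, Cdkn2b and E2f7 in NL, are limited by depth.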
